A study of Rattus norvegicus with 8 samples.

Results

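The genes described are 7 that make, package, recapture or degrade the monoamine transmitters: Th, Ddc, Slc18a2, Slc6a3, Slc6a4, Maoa and Maob. They were chosen by name, and every probe set that the array's annotation table assigns to one of these symbols was taken, which gave 7 of 4737 named genes and 11 of the 8799 probe sets deposited per array. Slc18a2, Slc6a3, Slc6a4 and Maoa had 2 probe sets each, and Th, Ddc and Maob had 1. Total RNA of whole rat brain was measured on 8 short-oligonucleotide arrays, with 1 array per sample. The control group held 3 arrays from rats that breathed isoflurane, a volatile anaesthetic, for 3 min and were perfused at once with cold saline. The exposed groups held 2 arrays after 1 hr and 3 arrays after 2 hr of 2% isoflurane. All rats were intubated, so the controls shared the intubation and a brief exposure with the treated animals. The sources used here do not give strain, sex, age or how the exposed brains were collected.

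Monoamine transmitters are made by small groups of neurons in the midbrain, the hypothalamus and the brainstem. Tyrosine hydroxylase, the product of Th, catalyses the rate-limiting step of dopamine and noradrenaline synthesis, and aromatic L-amino acid decarboxylase, the product of Ddc, completes the synthesis of dopamine and of serotonin. The vesicular transporter of Slc18a2 loads all monoamines into vesicles, the plasma membrane transporters of Slc6a3 and Slc6a4 take dopamine and serotonin back up, and the mitochondrial monoamine oxidases Maoa and Maob degrade them. In a whole brain most of these transcripts come from few cells, whereas the oxidases are also made by glia. On such bulk samples, fewer cells of a type and less RNA per cell cannot be told apart.

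Of the genes, 6 had a promoter window in the RefSeq table of build GRCr8, each running from 250 bases before to 50 bases after a gene start. Those of Th and Slc18a2 are shown because both hold a cyclic AMP response element, the letters TGACGTCA, which is the same on both strands. It is printed in capitals, and the windows are chr1:207508169-207508468 on the minus strand for Th and chr1:268399771-268400070 on the plus strand for Slc18a2.
Th: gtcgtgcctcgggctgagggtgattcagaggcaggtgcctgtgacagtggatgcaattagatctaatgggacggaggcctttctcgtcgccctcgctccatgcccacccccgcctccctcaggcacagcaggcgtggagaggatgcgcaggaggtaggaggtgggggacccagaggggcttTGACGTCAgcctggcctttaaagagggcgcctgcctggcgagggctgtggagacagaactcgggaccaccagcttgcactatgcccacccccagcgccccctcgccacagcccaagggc
Slc18a2: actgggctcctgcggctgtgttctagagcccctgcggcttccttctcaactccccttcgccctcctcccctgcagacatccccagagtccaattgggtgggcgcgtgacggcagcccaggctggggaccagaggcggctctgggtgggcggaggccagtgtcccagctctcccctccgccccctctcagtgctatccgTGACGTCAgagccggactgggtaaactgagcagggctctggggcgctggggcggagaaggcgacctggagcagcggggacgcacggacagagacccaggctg
This element was held by 1.83% of the 33469 promoter windows of the table, and by no window of the other members. It began 69 bases before the gene start in Th and 52 bases before it in Slc18a2.

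The windows of the oxidase genes are shown because the readings of Maoa and Maob ran opposite ways across the arrays. They are chrX:8681323-8681622 on the minus strand for Maoa and chrX:8490155-8490454 on the plus strand for Maob. RefSeq lists no gene wholly between Maob and Maoa, which are transcribed towards each other. Capitals mark the GC box letters GGGCGG on either strand.
Maoa: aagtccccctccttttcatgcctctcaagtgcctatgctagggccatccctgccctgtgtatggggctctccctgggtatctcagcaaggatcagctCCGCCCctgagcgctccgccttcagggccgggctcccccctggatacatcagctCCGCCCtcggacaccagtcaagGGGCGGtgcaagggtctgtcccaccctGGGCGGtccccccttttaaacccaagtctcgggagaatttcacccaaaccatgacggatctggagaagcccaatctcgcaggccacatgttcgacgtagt
Maob: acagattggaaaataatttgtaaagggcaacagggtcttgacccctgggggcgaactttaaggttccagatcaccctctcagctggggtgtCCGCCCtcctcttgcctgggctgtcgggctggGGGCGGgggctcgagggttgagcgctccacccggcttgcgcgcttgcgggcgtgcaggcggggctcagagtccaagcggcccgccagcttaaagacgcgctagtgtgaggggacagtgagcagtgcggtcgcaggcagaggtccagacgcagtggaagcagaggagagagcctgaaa
The Maoa window held 4 such matches and the Maob window 2. GC boxes were common, in 33.1% of all windows, and were also found in those of Slc18a2 and Slc6a3. These matches describe letters only.

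All values are the deposited intensities on a linear scale. For the tests, readings under a floor of 9.1, the 20th percentile of all values, were set to it, log2 was taken, and probe sets above the floor on at least 2 arrays were kept. All 11 probe sets of the members passed that filter, among 7770 probe sets tested with limma. Of the members, 8 probe sets lay above the floor on all 8 arrays. The exceptions were Ddc, above it on 4 arrays, and the Slc18a2 probe sets rc_AI043796_s_at and L00603_at, above it on 7 and 2 arrays. Levels are compared between arrays only and never between probe sets.

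The arrays had trimmed mean intensities of 150.2 to 150.3, but some of them stood apart in ways that the groups did not explain. Control replicate 3, 1 hr replicate 1 and 2 hr replicate 3 had the highest top intensities, 23009 to 37712 against 3504 to 12445 on the others, and ribosomal protein probe sets with mean log2 intensities of 10.25 to 10.67 against 9.25 to 9.57. Of the marker genes tested for brain tissue, 9 of 9 for neurons, 6 of 6 for oligodendrocytes and 7 of 8 for astrocytes were above the floor on all arrays. The hypothalamic neuropeptide genes differed between arrays. Summed over 7 genes, of which 5 were above the floor on all arrays, their intensities were 359.2 to 422.9 on the controls, 401.5 and 2155 on the 1 hr arrays and 399.2 to 4180 on the 2 hr arrays, with the high values on 1 hr replicate 1 and 2 hr replicate 2. Avp, Oxt and Hcrt had their highest readings on both arrays, Pmch only on 1 hr replicate 1 and Gal only on 2 hr replicate 2, while Crh read 22.5 and 22 on them, within its range of 19.7 to 34.1 on the others. Avp gave 771.2 and 2199 on the 2 arrays, with 104.6 to 163.4 elsewhere.

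**Figure D1:**
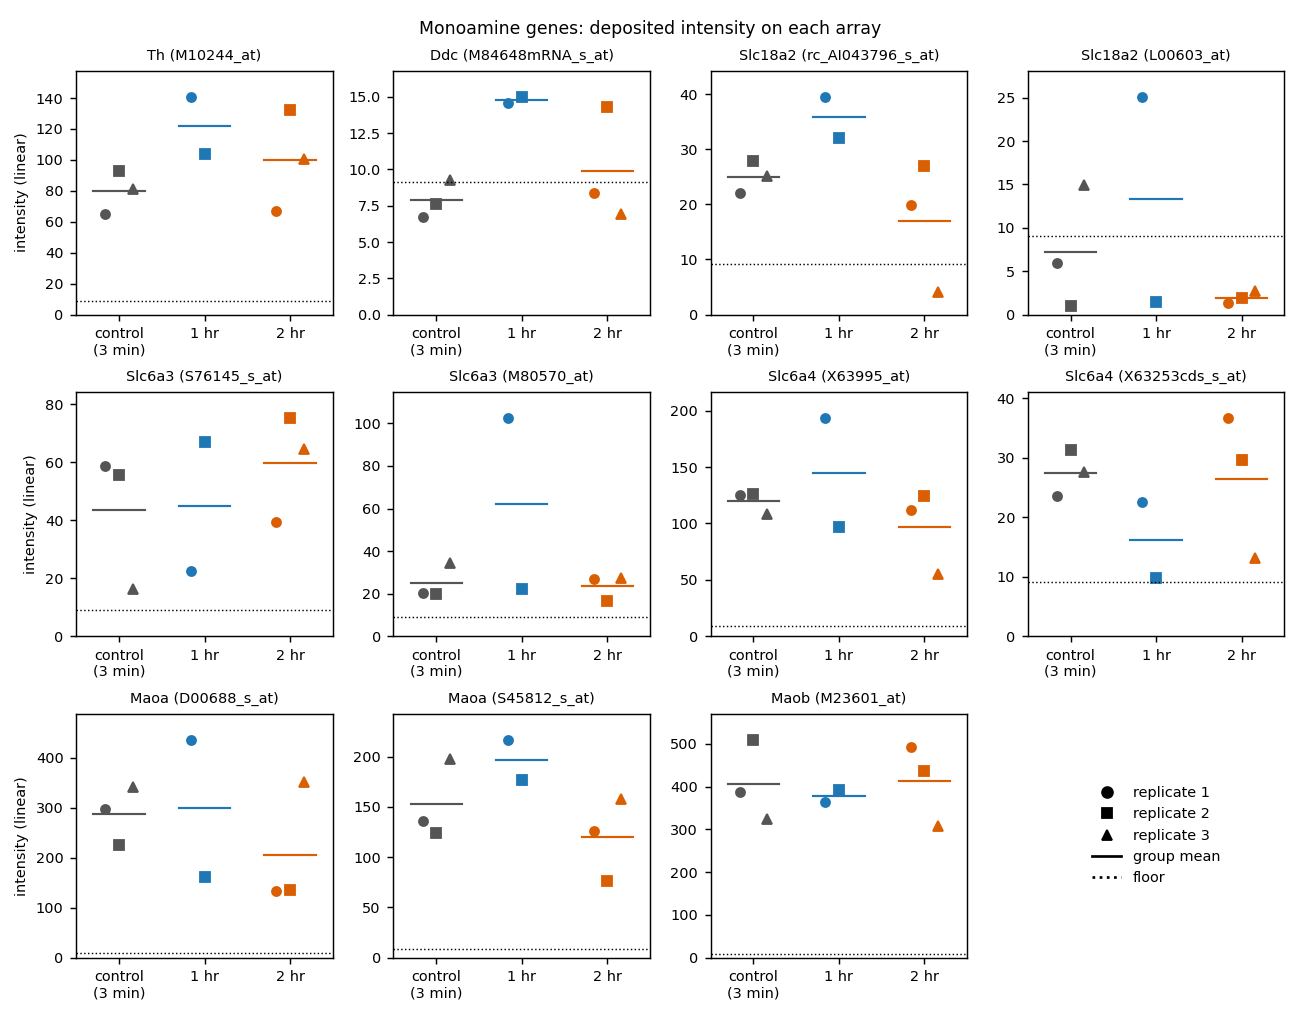
Deposited intensity (linear scale) of each of the 11 monoamine probe sets on each of the 8 arrays, in 1 panel per probe set, with control (3 min), 1 hr and 2 hr from left to right. Symbols mark replicates, horizontal lines group means and the dotted line the floor of 9.1. Both Ddc readings at 1 hr, 14.6 and 15.0, lay above all controls, and the 2 hr readings of all 11 probe sets overlapped the controls.

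None of the monoamine genes passed the test in any comparison. After 1 hr the synthesis genes Th and Ddc and 1 probe set of the vesicular transporter gene Slc18a2 read above every control array. The dimmer probe set of the serotonin transporter gene Slc6a4 read below them, while its brighter probe set averaged 0.19 in log2 above the controls. At 1 hr 12.7% of all tested probe sets did not overlap the controls, and the Ddc readings lay close to the floor. After 2 hr every member overlapped the controls, where 5.44% of all tested probe sets did not. With limma, 0 of the 11 passed an adjusted p of 0.05 when 1 hr, 2 hr or any exposure was set against control, or 2 hr against 1 hr. The background was equally empty, with 0% of the 7770 probe sets called in each of the 4 comparisons. At an unadjusted p under 0.05 there was 1 member probe set, that of Ddc, at 1 hr, against a background of 2.68%, and 0 at 2 hr, against a background of 1.79%. There were also 0 for any exposure (background 2.21%) and 0 for 2 hr against 1 hr (background 2.77%).

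Th, the gene of the rate-limiting catecholamine enzyme, had readings of 65.1, 93.0 and 81.2 in controls, 140.8 and 103.6 at 1 hr and 67.2, 132.4 and 100.5 at 2 hr. Both 1 hr arrays lay above all 3 controls, and the 2 hr arrays spanned the range of the controls and beyond. The group means stood in the order control, 2 hr, 1 hr, with no neighbours apart beyond their spread. In log2 intensity, Th averaged 6.92 ± 0.31 (SD, n = 2) at 1 hr and 6.30 ± 0.26 (SD, n = 3) in controls, a log2 change of 0.61 (SE 0.386, 95% interval -0.25 to 1.48) or 1.53-fold, with a limma adjusted p of 1. At 2 hr it averaged 6.59 ± 0.49 (SD, n = 3), a log2 change of 0.29 (95% interval -0.49 to 1.06) against the controls, with a limma adjusted p of 1. The highest readings of Th were on 1 hr replicate 1 and 2 hr replicate 2, the same arrays on which the mean of the hypothalamic neuropeptide genes was high. Over the 8 arrays the log2 reading of Th and the mean of the 7 neuropeptide genes had a Pearson correlation of 0.78 and a Spearman correlation of 0.52, given as a description of arrays that share this difference. Without those 2 arrays the log2 change of Th was 0.39 at 1 hr, where only replicate 2 was left, and 0.058 at 2 hr. Th also had a Pearson correlation of 0.69 with the reading of the 5S ribosomal RNA probe set, which lay between 12.9 and 23.7 on 1 of the 2 hr arrays and 2 of the controls, and between 70.4 and 141.7 on the remaining 5 arrays. With the arrays of low 5S reading as a block the 1 hr change of Th was 0.33. The part of these differences between arrays in the Th readings was not tested.

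Ddc, the gene of the decarboxylase that acts after Th and in serotonin synthesis, lay close to the floor. It read 6.7, 7.6 and 9.3 in controls, 14.6 and 15.0 at 1 hr and 8.4, 14.3 and 6.9 at 2 hr. The 1 hr arrays did not overlap the controls, and 1 of the 2 hr arrays, at 14.3, came close to them. On the floored scale Ddc averaged 3.89 ± 0.028 (SD, n = 2) at 1 hr and 3.20 ± 0.018 (SD, n = 3) in controls, where 2 of the 3 arrays sat at the floor. The log2 change was 0.69 (SE 0.289, 95% interval 0.043 to 1.34), or 1.61-fold, with an unadjusted p of 0.0389 and a limma adjusted p of 1. A lower floor, at the 5th percentile, gave a change of 0.92 and an unadjusted p of 0.110, and a pseudocount of 16 in place of the floor gave 0.37 and 0.129, so the size and the p both depend on how dim values are treated. At 2 hr Ddc averaged 3.40 ± 0.38 (SD, n = 3), a log2 change of 0.21 (95% interval -0.37 to 0.79) from the controls that limma did not call (adjusted p = 1). The 2 hr reading of 14.3 came from replicate 2, and without it the change was -0.010. The 1 hr change was 0.71 without the 2 arrays of high neuropeptide level, where only replicate 2 was left at 1 hr. It was 0.51 with an unadjusted limma p of 0.124 when those arrays formed a block. Ddc also moved with the pituitary markers, with a Pearson correlation of 0.83 and a Spearman correlation of 0.79 to their mean over the 8 arrays. This was the largest Pearson correlation of any member probe set with any marker list, so it is a description only. Others came close, such as -0.79 for D00688_s_at of Maoa with choroid plexus and 0.76 for S76145_s_at of Slc6a3 with astrocytes. Ddc was above the floor on only 4 of the 8 arrays. All 7 pituitary genes had higher means at 1 hr than in controls, as had 55.8% of all tested probe sets. At 2 hr 3 were higher and 4 lower, and 4 of the 7 were above the floor on every array. The 1 hr arrays differed. Pomc and Gh1 read 102.5 and 156.5 on replicate 2 but 16.8 and 24.8, below every control, on replicate 1. Cga, Tshb and Fshb lay within the control range on replicate 1. The summed intensity of the 7 genes was 305.7 and 535.6 at 1 hr and 238 to 922.9 at 2 hr, against 253.7 to 275.6 in controls. Of them Prl, the prolactin gene, read 44.5 and 51 at 1 hr, against 4.1 to 15.2 in controls, with a log2 change of 1.95 and a limma adjusted p of 1. The part of the pituitary and hypothalamic transcripts in the Ddc readings was not tested. In likeness to each other, Th and Ddc had a Pearson correlation of 0.79 and a Spearman correlation of 0.74 over the 8 arrays, with both high on 1 hr replicate 1 and 2 hr replicate 2.

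The brightest Slc18a2 probe set, rc_AI043796_s_at, for the transporter that fills vesicles with monoamines, read 22.0, 27.9 and 25.2 in controls, 39.5 and 32.0 at 1 hr and 19.9, 26.9 and 4.1 at 2 hr. Both 1 hr arrays lay above every control and every 2 hr array. It averaged 5.15 ± 0.21 (SD, n = 2) in log2 intensity at 1 hr and 4.64 ± 0.17 (SD, n = 3) in controls, 1.43-fold higher with a 95% interval of the log2 change from -0.65 to 1.68 (limma adjusted p = 1). At 2 hr its mean was 4.08 ± 0.81 (SD, n = 3), the lowest of the groups. The wide spread came from replicate 3, whose reading of 4.1 was set to the floor of 9.1. The difference between 2 hr and 1 hr was the largest change among the members in any comparison, at -1.07 in log2 (SE 0.520, 95% interval -2.23 to 0.097), with an unadjusted p of 0.0682 and a limma adjusted p of 1. Without 2 hr replicate 3 it was -0.62. A floor at the 5th percentile gave -1.45 and one at the 40th percentile -0.35, so its size depends on how dim values are treated. The second probe set, L00603_at, was above the floor on control replicate 3 and 1 hr replicate 1 only, at 14.9 and 25.1, and read 1.3 to 2.7 at 2 hr. All 2 hr arrays and 2 of the 3 control arrays were below the floor, so no fold is given for 2 hr against control, where the limma adjusted p was 1.

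The probe sets of Slc6a3, the dopamine transporter gene, did not run together. S76145_s_at read 58.7, 55.4 and 16.4 in controls, 22.6 and 67.1 at 1 hr and 39.4, 75.1 and 64.5 at 2 hr. M80570_at read 20.2, 19.8 and 34.3 in controls, 102.4 and 22.3 at 1 hr and 26.8, 16.7 and 27.1 at 2 hr. On control replicate 3 and 1 hr replicate 1 the first was at its lowest and the second at its highest, and the Pearson correlation between them over the 8 arrays was -0.73 (Spearman -0.69). For S76145_s_at the 2 hr arrays averaged 5.85 ± 0.49 and the controls 5.23 ± 1.04 in log2 intensity (SD, n = 3 each), a change of 0.61 (95% interval -0.78 to 2.01). The 1 hr change of M80570_at was 1.00 (95% interval -0.48 to 2.47) and rested on 1 of the 2 arrays. Neither was called by limma (adjusted p = 1). With opposite readings from its probe sets, no direction can be given for Slc6a3. The changes of S76145_s_at also depended on single arrays, and that at 2 hr was -0.068 without the 3 arrays of highest top intensity. M80570_at read 27.1 to 102.4 on those 3 arrays and 16.7 to 26.8 on the other 5, so it separated them, though narrowly.

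For Slc6a4, the serotonin transporter gene, the brightest probe set X63995_at read 125.4, 126.3 and 107.9 in controls, 193.2 and 96.9 at 1 hr and 111.9, 123.9 and 54.9 at 2 hr. The controls were tight and each exposed group held 1 array far from them, high at 1 hr and low at 2 hr. In log2 intensity it averaged 6.51 ± 0.64 at 2 hr and 6.90 ± 0.13 in controls (SD, n = 3 each), a change of -0.39 (95% interval -1.27 to 0.49), and limma did not call it (adjusted p = 1). Without 2 hr replicate 3 that change was -0.022. The second probe set, X63253cds_s_at, read 23.5, 31.2 and 27.6 in controls, 22.6 and 9.7 at 1 hr and 36.6, 29.6 and 13.1 at 2 hr. Its 1 hr arrays lay below every control, with a log2 change of -0.88 (SE 0.567, 95% interval -2.15 to 0.39) and a limma adjusted p of 1, whereas X63995_at read 0.19 above the controls at 1 hr. Both probe sets were low on 2 hr replicate 3. Within groups, after subtracting each group's mean, they had a Pearson correlation of 0.94 over the 8 arrays, against 0.51 without that step. X63995_at also ran with the Slc18a2 probe set rc_AI043796_s_at (Pearson 0.87, Spearman 0.52), again with both at their highest on 1 hr replicate 1 and at their lowest on 2 hr replicate 3.

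**Figure D2:**
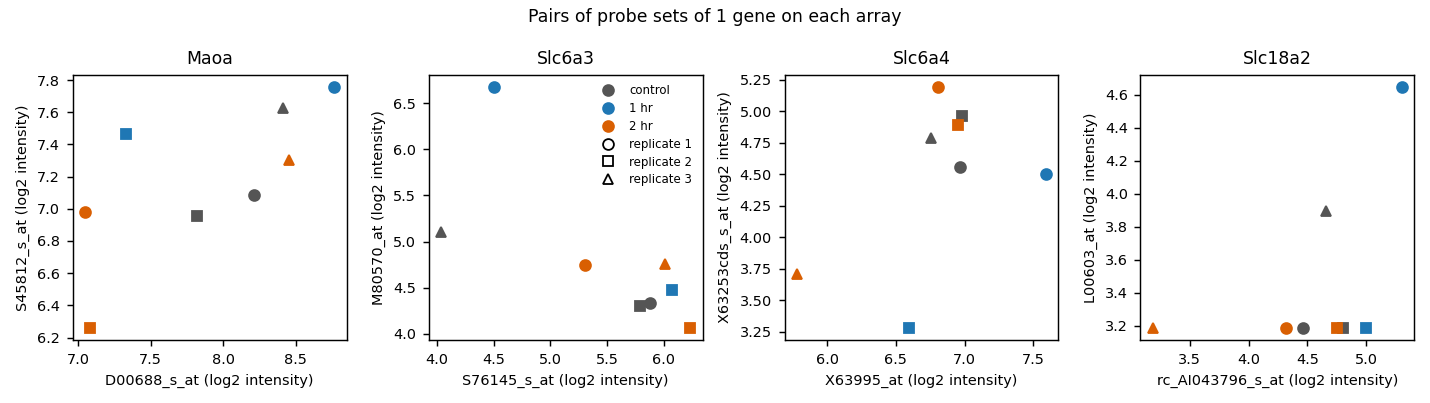
Log2 intensity of the second probe set of a gene (vertical axis) against its brightest (horizontal axis) on each of the 8 arrays, for Maoa, Slc6a3, Slc6a4 and Slc18a2, with values under the floor set to it. Colours mark control, 1 hr and 2 hr and symbols the replicate. The readings of Maoa run together (Pearson 0.70) and those of Slc6a3 run opposite ways (Pearson -0.73).

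Maoa, the oxidase that prefers serotonin and noradrenaline, gave the lowest group means at 2 hr on both of its probe sets. D00688_s_at read 296.4, 225.5 and 340.9 in controls, 435.4 and 161.2 at 1 hr and 132.4, 135.8 and 350.4 at 2 hr. S45812_s_at read 135.7, 124.1 and 197.6 in controls, 216.7 and 176.4 at 1 hr and 126.3, 76.5 and 158.2 at 2 hr. On D00688_s_at, 2 of the 2 hr arrays lay below every other array and the third lay above every control. That probe set averaged 7.53 ± 0.80 at 2 hr and 8.15 ± 0.30 in controls in log2 intensity (SD, n = 3 each), a change of -0.62 (SE 0.468, 95% interval -1.67 to 0.43) with a limma adjusted p of 1. That change was -0.38 without 2 hr replicate 1, -0.40 without 2 hr replicate 2 and -1.08 without 2 hr replicate 3, where the unadjusted p was 0.0370 and the limma adjusted p 1. The log2 change of S45812_s_at was -0.37 (95% interval -1.13 to 0.38), also with a limma adjusted p of 1. At 1 hr the changes of D00688_s_at and S45812_s_at had opposite signs, -0.098 and 0.39. For S45812_s_at the 2 hr arrays all lay below both 1 hr arrays, with a log2 difference of -0.76 (SE 0.378, unadjusted p = 0.0720, limma adjusted p = 1).

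One of the Maoa probe sets separated the arrays by their top intensity, as did M80570_at of Slc6a3. D00688_s_at read 340.9 to 435.4 on the 3 arrays of highest top intensity, 1 from each group, and 132.4 to 296.4 on the other 5, so these sets of arrays did not overlap. S45812_s_at did overlap, with 158.2 to 216.7 on the 3 and 76.5 to 176.4 on the other 5. The Pearson correlation of D00688_s_at with the ribosomal protein mean was 0.75 (Spearman 0.71), and that of S45812_s_at was 0.71 (Spearman 0.81). Within the 3 arrays the 2 hr change of D00688_s_at was 0.040 (1 array against 1), and within the other 5 it was -0.95 (2 arrays against 2). Without the 3 arrays the 2 hr change of -0.95 had an unadjusted p of 0.0140, and the limma adjusted p was 0.941. What part this property of the arrays had in the 2 hr readings was not tested.

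Maob, the oxidase found in astrocytes and serotonin neurons, differed least between the groups. M23601_at read 388.0, 509.5 and 324.1 in controls, 363.0 and 391.4 at 1 hr and 493.6, 435.9 and 308.1 at 2 hr. The ranges of all groups overlapped. It averaged 8.66 ± 0.35 at 2 hr and 8.64 ± 0.33 in controls in log2 intensity (SD, n = 3 each), a change of 0.016 with a 95% interval of -0.61 to 0.65 (limma adjusted p = 1), which spans 0.654-fold to 1.56-fold. At 1 hr the change was -0.086 (95% interval -0.79 to 0.62). Its lowest readings, 308.1 to 363.0, were on the same 3 arrays of highest top intensity, against 388.0 to 509.5 on the other 5, again without overlap. The share of all tested probe sets that separated these arrays in the same way was not counted. The correlation of Maob with the ribosomal protein mean was -0.88 (Pearson) and -0.95 (Spearman). Maob and D00688_s_at of Maoa had a Pearson correlation of -0.71 (Spearman -0.79) over the 8 arrays, and within groups of -0.76. The part of the array property in this was not tested.

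**Figure D3:**
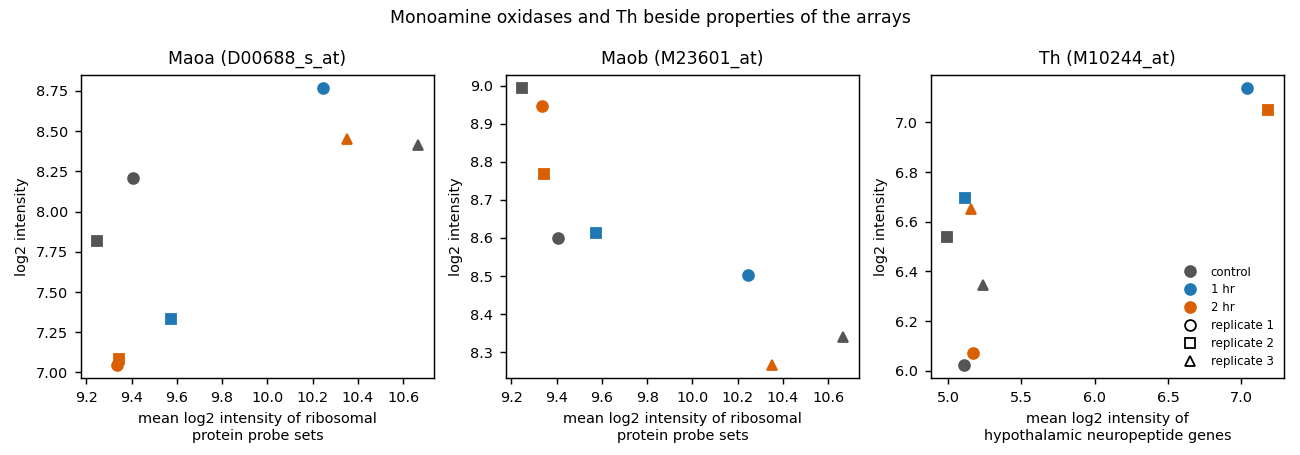
Log2 intensity of Maoa (D00688_s_at) and Maob (M23601_at) against the mean log2 intensity of 62 ribosomal protein probe sets, and of Th (M10244_at) against the mean log2 intensity of 7 hypothalamic neuropeptide genes, on each of the 8 arrays. Colours mark control, 1 hr and 2 hr and symbols the replicate. Maoa is high and Maob low on the 3 arrays of high ribosomal reading, and Th is highest on the 2 arrays of high neuropeptide reading.

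Across the members, 1 hr replicate 1 held the highest reading for 7 of the 11 probe sets, or 63.6%, and no lowest reading. Over all tested probe sets that array held the highest reading for 22.2%, the largest share of any array. For Th, Slc18a2 and Maoa every probe set was highest on it. The 2 hr replicate 3 array held the lowest reading of 3 member probe sets, those of Slc18a2 (rc_AI043796_s_at), Slc6a4 (X63995_at) and Maob, or 3 of 11, where it held the lowest reading of 15.8% of all tested probe sets.

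At 1 hr, 4 of the 11 probe sets did not overlap the controls, 3 of them higher and 1 lower. The background was 12.7% of all tested probe sets, with 7.54% higher and 5.11% lower. The median log2 change of the member probe sets at 1 hr was 0.39, beside 0.054 over all tested, and 0.19 when each of the 7 genes counts once by its brightest probe set. At 2 hr, 0 of the 11 did not overlap, where the background was 5.44% (2.90% higher and 2.55% lower), and the median change was -0.17, beside 0.018 over all tested. Counted once per gene, the 2 hr median was 0.016, of opposite sign, with 4 genes higher and 3 lower. Comparing 2 hr with 1 hr, 3 of the 11 did not overlap, all lower at 2 hr, against a background of 13.8% in all, with 7.82% lower and 5.98% higher. The median difference of the 11 was -0.52, beside -0.026 over all tested, and -0.48 by gene. For any exposure against control 0 of the 11 did not overlap (background 1.93%, with 0.927% higher and 1.00% lower), and the median was 0.0075, beside 0.037 over all tested, and -0.021 by gene. The comparisons against control share the control arrays. The members were chosen by name, but with earlier results of these data known.

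**Figure D4:**
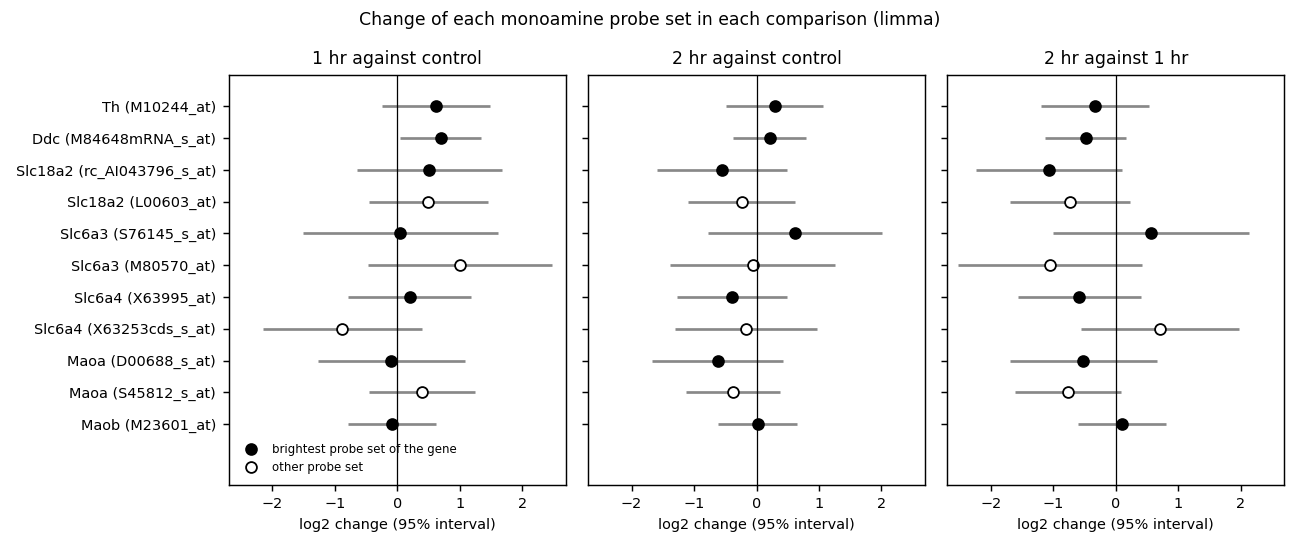
Log2 change (horizontal axis, with its 95% interval from limma) of each of the 11 monoamine probe sets for 1 hr against control, 2 hr against control and 2 hr against 1 hr. Filled points are the brightest probe set of a gene and open points the others. Of the intervals, that of Ddc at 1 hr (0.043 to 1.34) leaves out 0 and the others include it.

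The size of change that these arrays could show was limited. The standard errors of the member probe sets ran from 0.259 to 0.624 for 2 hr against control and from 0.289 to 0.697 for 1 hr against control on the log2 scale. The 95% interval of every member probe set reached a change of more than 1.5-fold in at least 1 direction in both comparisons. A missing call therefore does not show that a gene stayed at its level.

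By likeness of pattern over the 8 arrays, the genes closest to Th were Gipr (Pearson 0.96) and Aebp1 (0.95). Those closest to S76145_s_at of Slc6a3 were Sstr5 (0.98) and Cldn3 (0.97), and those closest to X63995_at of Slc6a4 were Mc3r (0.96) and Cyp26b1 (0.96). Nearest to D00688_s_at of Maoa were Top2a (0.94) and Muc2 (0.94), and nearest to Maob were Hsd17b12 (0.99) and Hibadh (0.97). These are the top 2 of at least 4677 candidate probe sets each, and with so many candidates and only 8 arrays the values are a description. No other monoamine member was among them. Ddc and the Slc18a2 probe sets could not be, because candidates had to lie above the floor on all 8 arrays.

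Other genes of the pathway did not pass either. Of 29 genes listed for synthesis, cofactor supply, transport and breakdown, 23 were on the array and 18 were tested. With limma 0 of the 18 had an adjusted p under 0.05 in any comparison, and at an unadjusted p under 0.05 there was 1 at 1 hr, where the background was 2.68%, and 0 in each of the other 3 comparisons. At 1 hr 9 read higher and 9 lower with a median log2 change of -0.016, and at 2 hr 9 read higher and 9 lower with a median of 0.054. Of all tested probe sets 55.8% read higher at 1 hr and 52.3% at 2 hr. The groups did not overlap for 4 of the 18 at 1 hr (background 12.7%) and 4 at 2 hr (background 5.44%). Tph1, the tryptophan hydroxylase of the pineal gland, read 0.7 to 3.1 and so lay below the floor on all arrays. Dbh, which converts dopamine to noradrenaline, also did not pass the filter, with readings of 3.4 to 14.2.

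Slc22a3, an organic cation transporter that takes up monoamines outside neurons, had the smallest p of these genes. It read 9.6, 9.3 and 10.4 in controls, 13.7 and 20.8 at 1 hr and 12.0, 11.2 and 10.7 at 2 hr, close above the floor. All exposed arrays lay above all controls. The log2 change was 0.79 at 1 hr (SE 0.291, unadjusted p = 0.0224) and 0.21 at 2 hr, with limma adjusted p of 1 for both, and a second probe set read 0.56 and 0.046. Slc22a2, a related transporter, read 14.8, 32.1 and 22.4 in controls, 55.4 and 10.6 at 1 hr and 38.0, 48.6 and 61.9 at 2 hr. Its 2 hr arrays lay above all controls, with a log2 change of 1.14 (SE 0.624, limma adjusted p = 1), while the 1 hr arrays lay on either side of them.

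The genes that supply the cofactor of Th, tetrahydrobiopterin, gave no common direction. Gch1, its first enzyme, had a log2 change of -0.36 at 2 hr, where all arrays lay below the controls, and of -0.071 at 1 hr. Qdpr, which regenerates the cofactor, read -0.25 at 2 hr and 0.31 at 1 hr, and Spr and Pts, which complete its synthesis, read -0.16 and 0.38 at 2 hr. Pnmt, the enzyme that makes adrenaline, read 0.46 at 2 hr and 0.25 at 1 hr, and Slc6a2, the noradrenaline transporter, -0.14 and -0.20. Of the aldehyde dehydrogenases that act after the oxidases, Aldh2 read 0.13 at 2 hr and -0.13 at 1 hr, Aldh1a1 0.17 and 0.58, and Aldh3a2 0.39 and -0.71. Limma called none of these (adjusted p = 1 at both times).

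**Figure D5:**
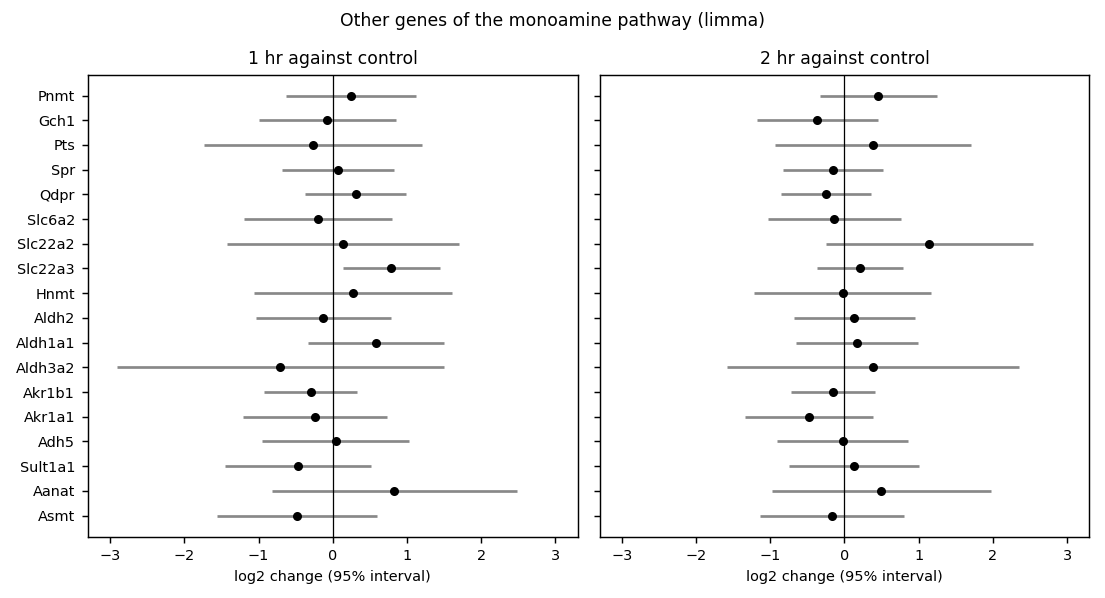
Log2 change (horizontal axis, with its 95% interval from limma) of 18 other genes of monoamine synthesis, transport and breakdown for 1 hr and 2 hr against control, on the brightest probe set of each gene. The interval of Slc22a3 at 1 hr leaves out 0 and the others include it.

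Identity and autoreceptor genes of monoamine neurons were also measured, 13 of 20 listed passing the filter. With limma 0 of the 13 passed in any comparison, and 0 had an unadjusted p under 0.05. At 1 hr 7 read higher and 6 lower, and at 2 hr 4 read higher and 9 lower, with medians of 0.022 and -0.14. Htr1a, a serotonin receptor gene listed here as an autoreceptor, read 6.8, 26.6 and 41.2 in controls, 15.5 and 30.8 at 1 hr and 10.1, 9.6 and 10.5 at 2 hr. Which cells its transcripts came from cannot be told in whole brain. The 2 hr readings of Htr1a were alike but lay within the wide range of the controls, and its log2 change was -1.10 at 2 hr (SE 0.540, limma adjusted p = 1). Foxa1, a transcription factor of midbrain dopamine neurons, read 20, 9.7 and 14.9 in controls, 7.8 and 7.5 at 1 hr and 18.5, 5.3 and 13.3 at 2 hr. Both 1 hr readings were below the floor, so its log2 change at 1 hr is at or below -0.65, with a limma adjusted p of 1. Nr4a2, Pitx3 and Fev, markers of dopamine and serotonin neurons, showed small changes against their errors at 2 hr. These were -0.19 for Nr4a2 (SE 0.569), -0.40 for Pitx3 (SE 0.614) and 0.14 for Fev (SE 0.317).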

How the data were processed

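The series comprised 8 arrays of whole rat brain, grouped by the sample titles into control (3 arrays), 1 hr (2) and 2 hr (3). The authors deposited 1 linear intensity per probe set and array. The sources used here do not state the software, the scaling target or any detection call. Trimmed means differed by at most 0.106%, so no further scaling was applied. The 59 control probe sets were left out, values were floored at the 20th percentile (9.1), log2 was taken, and 7770 of 8740 probe sets above the floor on at least 2 arrays were kept. The number of arrays limits the precision. Names came from the platform's annotation table, in which 7006 probe sets had 1 symbol, 308 several and 1426 none, and 6985 were updated through the gene number to RefSeq (GRCr8).

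Comparisons were fitted with limma 3.58.1 in R 4.3.3 on all 8 arrays with an intensity trend, with two-sided tests. Calls used p-values adjusted by Benjamini-Hochberg across all 7770, at 0.05. Any exposure is the mean of the 1 hr and 2 hr means. The fit was tested on simulated data, in 10 runs with 200 of 7770 probe sets changed. Noise was drawn independently for each probe set and array, and the 1 hr and 2 hr groups were given the same change. Differences between arrays that many probe sets share were not simulated, so the shares describe that setting only. Of log2 changes of size 1 the fit called 3.9% at 1 hr, 6.5% at 2 hr and 10.5% for any exposure. For size 2 the shares were 41.7%, 62.4% and 75.6%. The labels give no animal numbers, so p-values measure the spread between these samples, which may be partly technical. At most 70 values were identical between any 2 arrays.

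The members and lists were chosen with earlier results of these data known. Every member probe set is described; a gene is summarised by its brightest. Of the other pathway and the identity lists, those passing, or otherwise the 2 genes with the smallest p for any exposure, were named by rule (Slc22a3, Slc22a2, Foxa1 and Htr1a), and further list genes were named after their values were seen. Likeness was the Pearson correlation with probe sets above the floor on all arrays. Alternatives covered normalization, floor, pseudocount, filter, trend, samples fitted, blocks and arrays left out.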

Additional observations from a re-analysis of the deposited data

How the results depend on the processing

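No member probe set was called under any alternative, in 23 settings for each pairwise comparison and 22 for any exposure (all alternatives were run, except that fitting only the groups compared gives any exposure no value of its own). The lowest limma adjusted p of a member was 0.188, for 2 hr against 1 hr without 1 hr replicate 2. Over all probe sets 0 to 4 were called. The stricter filter left out Ddc and Slc18a2 and the floor at the 40th percentile left out Ddc. With the floor there, all Slc18a2 readings of the 2 hr and control arrays were at it. The small number of arrays and dim readings near the floor limit the precision. Of 625 alternative values, 51 changed sign; none of these was called, and the cause was not tested.

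The log2 changes that changed sign are given on the brightest probe set of each gene. The labels state no pairing by replicate number. Deviations from the group means had correlations of -0.331 to 0.286 between arrays of the same number. With 2 arrays at 1 hr their deviations mirror each other, so these values cannot decide whether samples were paired. A replicate block gave -0.21 for Slc6a3, -0.026 for Slc6a4 and 0.20 for Maoa at 1 hr. Median centring and quantile normalization gave -0.061 and -0.026 for Maob at 2 hr and -0.066 and -0.094 for Slc6a3 at 1 hr. The floor at the 40th percentile gave -0.055 for Slc6a3 at 1 hr and 0.17 for Slc18a2 with any exposure. With the 3 arrays of highest top intensity as a block Slc18a2 with any exposure was 0.012. Without those arrays it was 0.14, Slc6a3 at 2 hr -0.068, Slc6a4 at 1 hr -0.38, and 2 hr against 1 hr -0.30 for Slc6a3 and 0.28 for Slc6a4. With arrays of low 5S reading as a block Maob was 0.21 at 1 hr, 0.19 with any exposure and -0.045 for 2 hr against 1 hr, and with any exposure Slc18a2 was 0.059 and Slc6a4 0.068. Alternatives chosen after seeing the data concerned the 2 arrays of highest neuropeptide level. As a block they gave -0.21 for Slc6a4 at 1 hr. Without them Ddc and Maob at 2 hr were -0.010 and -0.037, Slc6a4 at 1 hr was -0.30, and 2 hr against 1 hr was -0.41 for Slc6a3, 0.42 for Maoa and -0.0053 for Maob.

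Leaving out 1 array at a time gave these ranges. At 2 hr against control they were -0.010 to 0.32 for Ddc and -0.14 to 0.21 for Maob. At 1 hr they were -0.74 to 0.83 for Slc6a3, -0.30 to 0.69 for Slc6a4, -0.81 to 0.62 for Maoa and -0.24 to 0.088 for Maob. With any exposure they were -0.19 to 0.20 for Slc18a2, -0.27 to 0.72 for Slc6a3, -0.35 to 0.15 for Slc6a4, -0.72 to 0.00040 for Maoa and -0.19 to 0.14 for Maob. For 2 hr against 1 hr they were -0.22 to 1.35 for Slc6a3, -1.24 to 0.20 for Maoa and -0.041 to 0.30 for Maob. Where 1 hr kept a single array, that array is assumed to vary like the other groups.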
